A study of Mus musculus with 6 samples.

Results

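A set of 9 genes was followed that are read as signs of cell senescence or of p53 activity, in RNA sequencing of whole cortical hemispheres from C57BL/6 mice, 3 aged 6 months and 3 aged 16 months. The 9 genes were Cdkn1a, Cdkn2a, Cdkn2b, Cdkn2c, Trp53, Mdm2, Ccng1, Lmnb1 and Gadd45a, which were chosen by name, without a threshold on any measured value, from the 38355 genes of the count files. Both ages are untreated wild-type animals of the same inbred strain, without transgene or deletion, and each sample is the cortex of a different brain, frozen and extracted as polyadenylated RNA. A housing protocol in the labels puts the younger mice at 3 months, but sample titles and the paper say 6 months, which was used. The labels do not state the sex of the mice. The paper, in its section on sorted cells, limits RNA sequencing to males and does not say whether that covers these samples. In tissue of mixed cells such as this, fewer cells of a type and less RNA per cell cannot be told apart.

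Senescence is a lasting exit from the cell cycle. A pair of routes lead to it, both ending at the retinoblastoma protein. In one, DNA damage or other stress stabilises the transcription factor p53 (Trp53), which switches on Cdkn1a (p21), an inhibitor of cyclin-dependent kinases, together with Ccng1 (cyclin G1), Gadd45a and Mdm2, the ubiquitin ligase that removes p53 again. In the other, the Cdkn2 genes supply the INK4 inhibitors of Cdk4 and Cdk6: p16 from Cdkn2a, which also encodes the Mdm2 antagonist p19ARF, p15 from Cdkn2b and p18 from Cdkn2c. Loss of the nuclear lamina protein lamin B1 (Lmnb1) is used as a further marker of senescent cells. The comparison of 6 with 16 months asked which of these transcripts differ in level with age in the cortex.

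Promoter sequences are shown for the members whose window holds the decamer of the p53 binding motif, because that motif is the textbook link between p53 and its targets. A full site is made of 2 such decamers, and pairs of decamers were not searched for. The windows come from RefSeq on GRCm38.p6 and run from 250 bases before to 50 bases after each annotated start of transcription, and 8 of the 9 members have at least 1 of them. The p53 decamer consensus, which reads the same on both strands and was allowed no mismatch, was found in 5 of these 8 genes, against 9.55% of the 27025 genes with a window (8.36% of 32851 windows). Among 19 other p53 target genes with a window, 6 (31.6%) held it. Only the 250 bases upstream of the start are printed, 5′ to 3′ along the strand of the gene, with matches to the decamer in capitals. The windows are chr17:29090729-29090978 (plus strand) for Cdkn1a, chr11:40755287-40755536 (minus strand) for Ccng1, chr10:117710759-117711008 (minus strand) for Mdm2, chr11:69580109-69580358 (plus strand) for Trp53 and chr6:67037408-67037657 (minus strand) for Gadd45a.
Cdkn1a: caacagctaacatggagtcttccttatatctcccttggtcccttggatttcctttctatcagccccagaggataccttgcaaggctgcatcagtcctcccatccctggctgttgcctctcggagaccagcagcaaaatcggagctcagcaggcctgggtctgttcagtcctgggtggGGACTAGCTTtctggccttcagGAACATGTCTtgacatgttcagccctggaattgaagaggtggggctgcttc
Ccng1: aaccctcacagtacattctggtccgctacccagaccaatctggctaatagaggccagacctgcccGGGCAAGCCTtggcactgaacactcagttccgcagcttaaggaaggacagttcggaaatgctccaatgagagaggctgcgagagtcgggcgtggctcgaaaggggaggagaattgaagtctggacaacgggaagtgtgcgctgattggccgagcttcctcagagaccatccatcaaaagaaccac
Mdm2: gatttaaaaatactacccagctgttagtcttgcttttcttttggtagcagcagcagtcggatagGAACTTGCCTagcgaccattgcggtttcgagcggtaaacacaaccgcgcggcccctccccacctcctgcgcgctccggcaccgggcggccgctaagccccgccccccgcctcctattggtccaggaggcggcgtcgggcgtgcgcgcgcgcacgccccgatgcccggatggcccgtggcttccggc
Trp53: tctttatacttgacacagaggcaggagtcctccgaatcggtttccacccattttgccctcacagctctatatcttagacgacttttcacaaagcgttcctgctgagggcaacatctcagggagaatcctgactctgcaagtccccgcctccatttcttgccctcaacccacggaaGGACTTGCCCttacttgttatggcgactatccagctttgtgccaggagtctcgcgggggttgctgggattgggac
Gadd45a: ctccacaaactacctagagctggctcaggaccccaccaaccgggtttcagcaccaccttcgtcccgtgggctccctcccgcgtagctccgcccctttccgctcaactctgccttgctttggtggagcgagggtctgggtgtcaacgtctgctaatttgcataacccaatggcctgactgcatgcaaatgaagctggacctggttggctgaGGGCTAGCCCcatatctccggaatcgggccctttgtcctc
The window of Cdkn1a belongs to its upstream start and holds 2 decamers, GGACTAGCTT beginning 73 bases and GAACATGTCT beginning 51 bases before that start. The window at the other annotated start of Cdkn1a holds none. The decamer began 185 bases upstream in Ccng1 (GGGCAAGCCT), 186 in Mdm2 (GAACTTGCCT), 75 in Trp53 (GGACTTGCCC) and 40 in Gadd45a (GGGCTAGCCC). No window of Cdkn2a, Cdkn2b or Cdkn2c held one, which says only that these letters are not in those windows. A match is to the decamer and not to a full site. It is a description of the sequence, and no binding was measured here.

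Total counts on genes lay between 29797253 and 46519280 per sample. A gene with 0 counts was taken to lie at up to 3 counts, which correspond to between 0.0645 and 0.101 CPM (counts scaled to library size). This limit covers counting error only. At 16 months, the deviations of replicates 1 and 2 from the mean of their age were correlated across genes with GC content, with r = 0.588 in the former and −0.582 in the latter (between −0.130 and 0.160 in the other 4 samples). Genes are not independent replicates, and these r values are a description. The summed level of 11 neuronal markers was between 11044 and 11078 CPM at 6 months and between 11350 and 11574 CPM at 16 months, and none was at 0. Markers of neighbouring regions moved with age. Of 7 tested thalamic markers 4 were called higher, as were 0.783% of all 17120 tested genes. The sum of all 8 thalamic markers listed was 231 to 238 CPM at 6 months and 241 to 279 CPM at 16 months. Of 7 dentate gyrus markers 3 were called higher (sum 257 to 261 and 288 to 299 CPM). The part of these differences in the results on the 9 genes was not tested.

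Of the 9 genes, 8 passed the filter on low counts, and 1 of them, Cdkn1a, was called by edgeR's quasi-likelihood test at a Benjamini-Hochberg adjusted P under 0.05. It was higher at 16 months. In the same test 1.67% of all 17120 tested genes were called, 0.783% as higher and 0.888% as lower. An unadjusted P under 0.05 was reached by 3 of the 8, Cdkn1a, Ccng1 and Lmnb1, and by 2987 of all 17120 tested genes (edgeR). DESeq2's Wald test called 2, Cdkn1a and Ccng1. The samples of both ages did not overlap in the same 3 genes, 2 of them higher and 1 lower at 16 months, as they did not in 23.7% of all tested genes (12.2% higher, 11.5% lower). The median log2 fold change of the 8 genes, given throughout as 16 over 6 months, was 0.036, and that of all tested genes 0.0014.

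**Figure D1:**
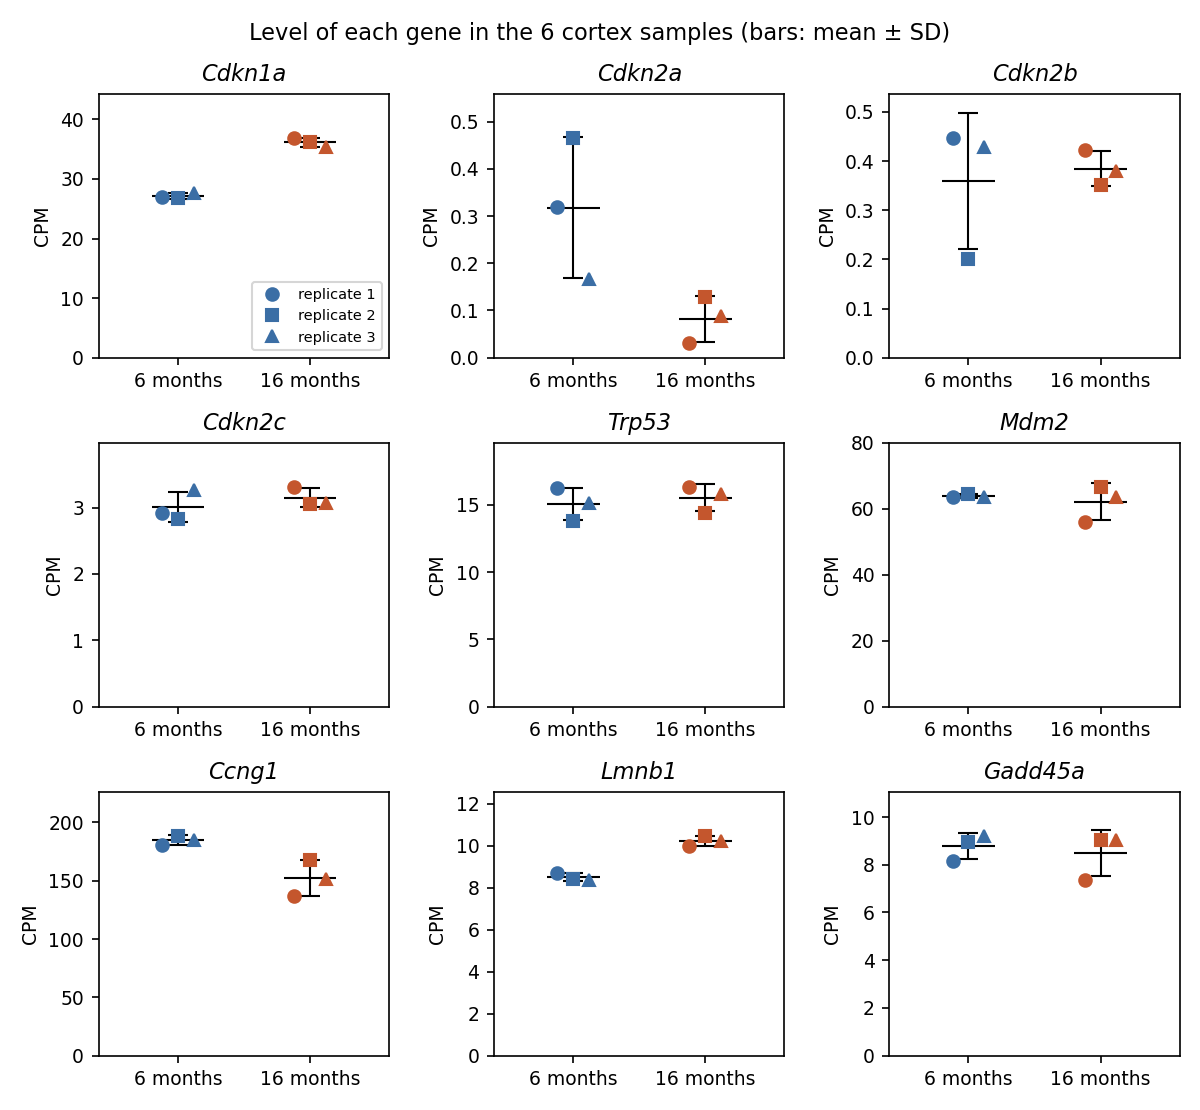
Level in CPM (vertical axes, from 0) of the 9 genes in each of the 3 samples of 6 months (blue) and 16 months (orange); symbols are replicates, and bars give the mean ± SD (n = 3). The ages lie apart upward in Cdkn1a and Lmnb1 and downward in Ccng1 and Cdkn2a, and overlap in the other 5 genes.

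Cdkn1a, on chromosome 17 from 29090976 to 29100727 (plus strand, GRCm38), encodes p21, the main transcriptional effector of p53 in cell cycle arrest. Its counts were 1261, 804 and 1161 at 6 months (replicates 1, 2 and 3, the order kept throughout) and 1225, 1133 and 1207 at 16 months. In CPM, the samples of 6 months had 26.9, 26.8 and 27.7 CPM and those of 16 months 37.0, 36.1 and 35.3 CPM. All 3 aged samples lay above all 3 younger ones, and the samples within an age differed by little. The mean rose from 27.1 ± 0.479 to 36.1 ± 0.808 CPM (SD, n = 3 each), which is 1.33-fold. This is a log2 fold change of 0.41 (SE 0.054, 95% interval 0.29 to 0.53, adjusted P = 0.00584, edgeR's quasi-likelihood test, Benjamini-Hochberg adjustment), the 50th smallest P of all tested genes. Leaving out replicate 1, 2 or 3 of 6 months raised the adjusted P to 0.0611, 0.0648 and 0.0636 with log2 fold changes of 0.41, 0.41 and 0.43, in fits that called 55, 57 and 48 genes in all. The genes with the pattern nearest to Cdkn1a were Cyp26b1, which encodes an enzyme that breaks down retinoic acid, Esrrb, an orphan nuclear receptor, and Plcl1. Their mean absolute difference from Cdkn1a in centred log2 CPM over the 6 samples was 0.012, 0.023 and 0.027.

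The second start of Cdkn1a and an overlapping transcript bear on what its count holds. Of its merged exons, 7.68% overlap AC167363.2, an unclassified transcript on the opposite strand that the count files do not list. The counts are per gene, so that transcripts from both starts are summed.

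The INK4 genes were at low levels. Cdkn2a, on chromosome 4 from 89274471 to 89294653 (minus strand), had 15, 14 and 7 counts at the younger age and 1, 4 and 3 at the older. Its aged samples all lay below its younger ones, at 0.0302, 0.128 and 0.0878 CPM against 0.320, 0.467 and 0.167 CPM. Several of these values are close to the level of 3 counts. With 36 counts at 6 months and 8 at 16 months, the ratio of 6 over 16 months was 3.74 with a 95% interval of 1.71 to 9.30 (exact binomial, counting error only). Cdkn2a failed the filter on low counts and was not tested with the other genes. An exact permutation test over the 6 samples gave a two-sided P of 0.1, the smallest that 3 against 3 samples allow. In a fit without the filter its adjusted P was 0.0730 (edgeR, Benjamini-Hochberg adjustment). Transcripts of p16 and p19ARF share exons and are summed in this count.

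Cdkn2b, the neighbour of Cdkn2a on chromosome 4 (89306299 to 89311039, minus strand), had 21, 6 and 18 counts at 6 months and 14, 11 and 13 at 16 months. The ages overlapped, and the spread at 6 months (0.359 ± 0.138 CPM, SD, n = 3) took in the whole range at 16 months (0.385 ± 0.0359 CPM). The log2 fold change of 0.033 had a 95% interval of −0.69 to 0.75, which leaves room for a change in either direction within those bounds. Cdkn2c, on chromosome 4 from 109660876 to 109667189 (minus strand), had 2.92, 2.83 and 3.27 CPM at 6 months and 3.32, 3.06 and 3.07 CPM at 16 months. These values overlapped too, with a log2 fold change of 0.063 (95% interval −0.18 to 0.30, adjusted P = 0.813, edgeR). Cdkn2d, the other INK4 gene, had a log2 fold change of 0.012 (adjusted P = 0.951).

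Cdkn1a belongs to the Cip/Kip family of inhibitors, as do Cdkn1c and Cdkn1b. Cdkn1c (p57), a maternally expressed imprinted gene, fell from 5.21, 5.57 and 5.22 CPM to 3.92, 3.35 and 3.60 CPM, a log2 fold change of −0.55 (SE 0.095, adjusted P = 0.0224, edgeR). All its aged samples lay below the younger ones. It lost the call without any 1 of the 6 months samples or without replicate 3 of 16 months, with adjusted P of at most 0.135. Cdkn1b (p27) had 67.9 ± 3.81 CPM at 6 months and 64.8 ± 7.56 CPM at 16 months (SD, n = 3 each), a difference of −0.067 on the log2 scale (adjusted P = 0.730).

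Trp53, on chromosome 11 from 69580359 to 69591873 (plus strand), had 16.2, 13.8 and 15.1 CPM at 6 months and 16.4, 14.4 and 15.8 CPM at 16 months. The ages overlapped almost fully. The log2 fold change of Trp53 was 0.040 with a 95% interval of −0.14 to 0.22 (adjusted P = 0.839, edgeR). Of its longest transcript, 10.8% is nearly identical to the pseudogene Trp53-ps. Mdm2, on chromosome 10 from 117688875 to 117710758 (minus strand), had 63.5, 64.4 and 63.7 CPM at 6 months and 56.1, 66.8 and 63.7 CPM at 16 months. Replicate 1 of 16 months was the lowest of the 6 samples and replicate 2 the highest. The log2 fold change of Mdm2 was −0.039 (95% interval −0.19 to 0.11, adjusted P = 0.807, edgeR). Mdm4, the relative of Mdm2 that also restrains p53, had 66.7 ± 2.04 and 60.6 ± 5.96 CPM (SD, n = 3 each, adjusted P = 0.360).

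The p53 relatives Trp63 and Trp73 were low in the cortex, at 2.03 ± 0.160 and 1.03 ± 0.244 CPM at 6 months (SD, n = 3). At 16 months they had 2.55 ± 0.250 and 1.15 ± 0.115 CPM, with adjusted P of 0.223 and 0.764 (edgeR). Over the whole list of 17 regulators and relatives of p53, 0 were called by edgeR or by DESeq2's Wald test. An unadjusted P under 0.05 was reached by 4 (2987 of all 17120 tested genes), and the median log2 fold change was −0.014. The largest log2 fold changes were 0.33 for Trp63 and −0.28 for Chek2, a kinase of the DNA damage response (adjusted P = 0.436), and neither passed the test.

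Ccng1, on chromosome 11 from 40748552 to 40755311 (minus strand), encodes cyclin G1, a p53 target that acts back on Mdm2. It had 8449, 5663 and 7773 counts at 6 months and 4535, 5267 and 5185 at 16 months, the most of the 9 genes. In CPM these were 180, 189 and 185 at 6 months and 137, 168 and 152 at 16 months. All aged samples lay below all younger ones, with a wider spread among the aged (184.8 ± 4.29 and 152.2 ± 15.6 CPM, SD, n = 3 each). On the log2 scale the difference was −0.28 (SE 0.072, 95% interval −0.44 to −0.12), and the adjusted P of 0.0924 did not pass the threshold (edgeR). The longest transcript of Ccng1 has a GC content of 40.8%, the lowest of the 9 genes, and its lowest and highest aged samples were replicates 1 and 2, those whose deviations followed GC content. After correction for GC content and gene length by offsets in the fit, the same difference was −0.20 (SE 0.028, adjusted P = 0.000397). It was also called by DESeq2's Wald test (adjusted P = 0.0243), and without replicate 1 or 2 of 16 months (adjusted P of 0.0295 and 0.00352, log2 fold changes of −0.21 and −0.36). Those 2 fits called 995 and 2211 genes in all, and the fit with offsets 2427. Without any 1 sample of 6 months or without replicate 3 of 16 months Ccng1 was not called (adjusted P between 0.253 and 0.336, edgeR). Ccng2, its paralog, had 59.7 ± 2.72 and 59.4 ± 5.74 CPM (SD, n = 3 each), a difference of −0.0070 on the log2 scale (adjusted P = 0.973).

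Gadd45a, on chromosome 6 from 67035096 to 67037457 (minus strand), encodes a stress sensor of the DNA damage response. It had 8.17, 8.93 and 9.23 CPM at 6 months and 7.36, 9.03 and 9.05 CPM at 16 months. The ages overlapped, and the log2 fold change of −0.047 had a 95% interval of −0.26 to 0.17 (adjusted P = 0.841, edgeR). Of its exons, 19.1% overlap E230016M11Rik on the opposite strand, and without a stated strand setting reads of both cannot be told apart there. The paralogs Gadd45b and Gadd45g had log2 fold changes of −0.028 and 0.19 (adjusted P of 0.931 and 0.415). Over the 5 relatives of cyclin G and Gadd45, 0 were called by edgeR or DESeq2. An unadjusted P under 0.05 was reached by 0 (2987 of all 17120 tested genes). The largest values on the log2 scale were those of Gadd45g and of Ccni (cyclin I, −0.074, adjusted P = 0.494).

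Lmnb1, on chromosome 18 from 56707813 to 56753424 (plus strand), had 8.73, 8.43 and 8.39 CPM at 6 months and 9.99, 10.5 and 10.2 CPM at 16 months. All aged samples lay above the younger ones, where loss of lamin B1 is the change known from senescent cells. The difference was 0.26 on the log2 scale (SE 0.068, 95% interval 0.11 to 0.42), and its adjusted P of 0.0927 did not pass the threshold (edgeR). DESeq2's Wald test gave an adjusted P of 0.229. With the same offsets the adjusted P was 0.0314, and without replicate 1 of 16 months 0.0435, with log2 fold changes of 0.24 and 0.28. Those fits called 2427 and 995 genes in all. With any other 1 sample left out Lmnb1 was not called (adjusted P between 0.0552 and 0.347, edgeR). Among the other lamin genes, Lmnb2 had 24.4 ± 0.613 and 23.9 ± 2.35 CPM and Lmna 44.4 ± 1.02 and 41.4 ± 3.45 CPM (SD, n = 3 each), with log2 fold changes of −0.028 and −0.10 (adjusted P of 0.882 and 0.489). Of the 14 genes of the nuclear lamina and envelope other than Lmnb1, 0 were called by either tool. An unadjusted P under 0.05 was reached by 0 (2987 of all 17120 tested genes), and the median log2 fold change was −0.0057. The largest log2 fold changes were those of Hmgb2 (0.35, adjusted P = 0.628), a chromatin protein lost from senescent cells, and Syne1 (0.10, adjusted P = 0.445). The value of Hmgb2 rested on single samples of few counts: it was 0.97, 0.19 and 0.084 without replicate 1, 2 or 3 of 6 months and 0.23 without replicate 1 of 16 months.

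**Figure D2:**
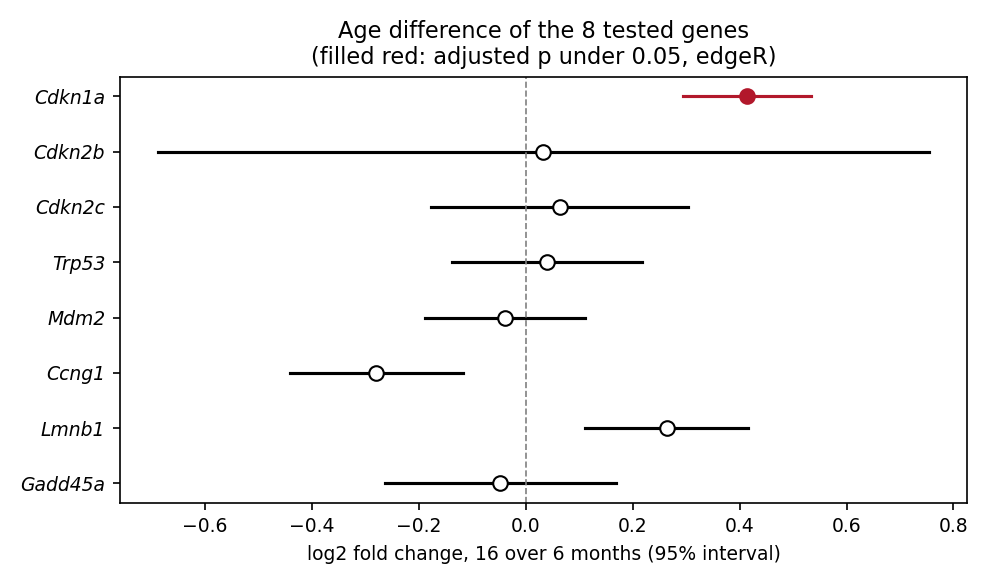
Log2 fold change of 16 over 6 months (horizontal axis) for the 8 tested genes, with 95% intervals from edgeR's quasi-likelihood fit; the filled red point passed an adjusted P of 0.05. The intervals of Cdkn1a (0.29 to 0.53), Lmnb1 (0.11 to 0.42) and Ccng1 (−0.44 to −0.12) lie away from 0, and the widest is that of Cdkn2b.

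A wider set of p53 targets was examined. Of 28 other target genes, 27 were tested, and 0 were called by edgeR. An unadjusted P under 0.05 was reached by 6 (2987 of all 17120 tested genes), and DESeq2's Wald test called 1, Zmat3. Of the 27, 15 had a positive and 12 a negative log2 fold change, with a median of 0.022. The largest values were those of Eda2r, a receptor of the tumour necrosis factor family (1.13, 1.07 and 0.906 CPM at 6 months, 0.543, 0.893 and 0.908 CPM at 16 months), and Ptprv, a receptor tyrosine phosphatase (7.62, 5.60 and 6.22 CPM, and 5.07, 4.85 and 4.98 CPM). Their log2 fold changes were −0.40 and −0.40, with adjusted P of 0.392 and 0.127 (edgeR). Eda2r was −0.20 without replicate 1 of 16 months, and Ptprv −0.26 without replicate 1 of 6 months. Zmat3, an RNA-binding zinc finger protein named here after its values were seen, had 126, 124 and 122 CPM at 6 months and 142, 140 and 146 CPM at 16 months. Its log2 fold change was 0.20, with an adjusted P of 0.0781 by edgeR. Bax, the apoptosis effector, which was also chosen after its values were seen, had 23.5 ± 0.0345 and 21.8 ± 2.42 CPM (SD, n = 3 each, adjusted P = 0.521).

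Downstream of the inhibitors, 19 genes of the cyclin D, CDK and retinoblastoma circuit were tested, and edgeR called 1, Cdkn1c. DESeq2's Wald test called 2, Cdkn1c and Ccnd2 (cyclin D2). Ccnd2, named after its values were seen, had 85.1 CPM at 6 months and 97.4 CPM at 16 months as means and an adjusted P of 0.0875 by edgeR. The median log2 fold change of the 19 was 0.026. Among 14 Polycomb genes, the repressors that keep the Cdkn2a locus silent, 0 were called by edgeR or DESeq2. An unadjusted P under 0.05 was reached by 5 (2987 of all 17120 tested genes), and the median was 0.027. The largest log2 fold changes were 0.30 for Cbx8 (7.70, 8.30 and 7.68 CPM at 6 months, 9.59, 9.25 and 10.1 CPM at 16 months) and −0.22 for Cbx7 (67.7, 66.0 and 66.7 CPM, and 61.1, 53.5 and 56.98 CPM). In both the ages lay apart, and the adjusted P of 0.0858 and 0.0968 did not pass the threshold (edgeR). Of 15 proliferation genes, 14 were tested and 0 called by edgeR. DESeq2's Wald test called 1, Top2a, and 4 had an unadjusted P under 0.05. Top2a and Mki67, both markers of dividing cells, had the largest log2 fold changes, 1.11 and 0.64 (adjusted P of 0.141 and 0.102). Top2a had 2.13, 0.700 and 0.953 CPM at 6 months and 3.83, 2.62 and 2.20 CPM at 16 months, with a mean of 1.26 ± 0.765 CPM at 6 months (SD, n = 3). Without replicate 1 of 6 months, the highest of the younger samples, its log2 fold change was 1.77. Mki67 had 3.18, 2.07 and 2.05 CPM at 6 months and 4.28, 3.86 and 3.45 CPM at 16 months. The median of the proliferation list was 0.13.

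Senescent cells are known to release cytokines, growth factors and proteases. Of 37 such secreted factors, 27 were tested, and 3 were called, all lower in the older mice (0.888% of all tested genes were called lower). The median of the 27 was −0.051 on the log2 scale, but at 16 months leaving out replicate 2 turned it to 0.012 and leaving out replicate 1 to −0.14. This list was drawn up with the lower Mmp12 of these samples already known. Spp1 (osteopontin) fell from 13.2, 14.0 and 14.7 CPM to 10.2, 9.70 and 8.55 CPM, a log2 fold change of −0.56 (adjusted P = 0.0128, edgeR). Hgf, the hepatocyte growth factor, fell from 10.8, 10.8 and 11.9 CPM to 8.12, 8.93 and 7.61 CPM (−0.44, adjusted P = 0.0302). The macrophage elastase gene Mmp12 had 14, 13 and 20 counts at 6 months and 1, 0 and 1 counts at 16 months (adjusted P = 0.0110, edgeR). Mmp12 passed the filter on low counts only through its 6 months samples, so that its call as lower is not independent of the filter. Its ratio of 6 over 16 months was 19.5 with a 95% interval of 5.11 to 166 (exact binomial, counting error only). Spp1 and Hgf lost their calls without any 1 sample of 6 months or without replicate 3 of 16 months (adjusted P of at most 0.107 and 0.192), and Mmp12 without replicate 2 or 3 of 6 months or replicate 3 of 16 months (at most 0.0808). Il6, Cxcl1, Ccl2 and Tnf were among the 10 genes too low to be tested, and Cxcl2 had 0 counts in all 6 samples, which allows up to 0.101 CPM in the shallowest sample. Across the 8 lists of the pathway, 149 genes in all, 137 were tested. Of these, edgeR called 0 higher and 4 lower, Mmp12 among them (0.783% and 0.888% of all tested genes). With at least 10 counts required in every sample it called 0 higher and 3 lower. DESeq2's Wald test called 3 higher (Ccnd2, Zmat3 and Top2a) and 3 lower (Cdkn1c, Spp1 and Hgf), and edgeR with GC and length offsets 15 higher and 15 lower.

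**Figure D3:**
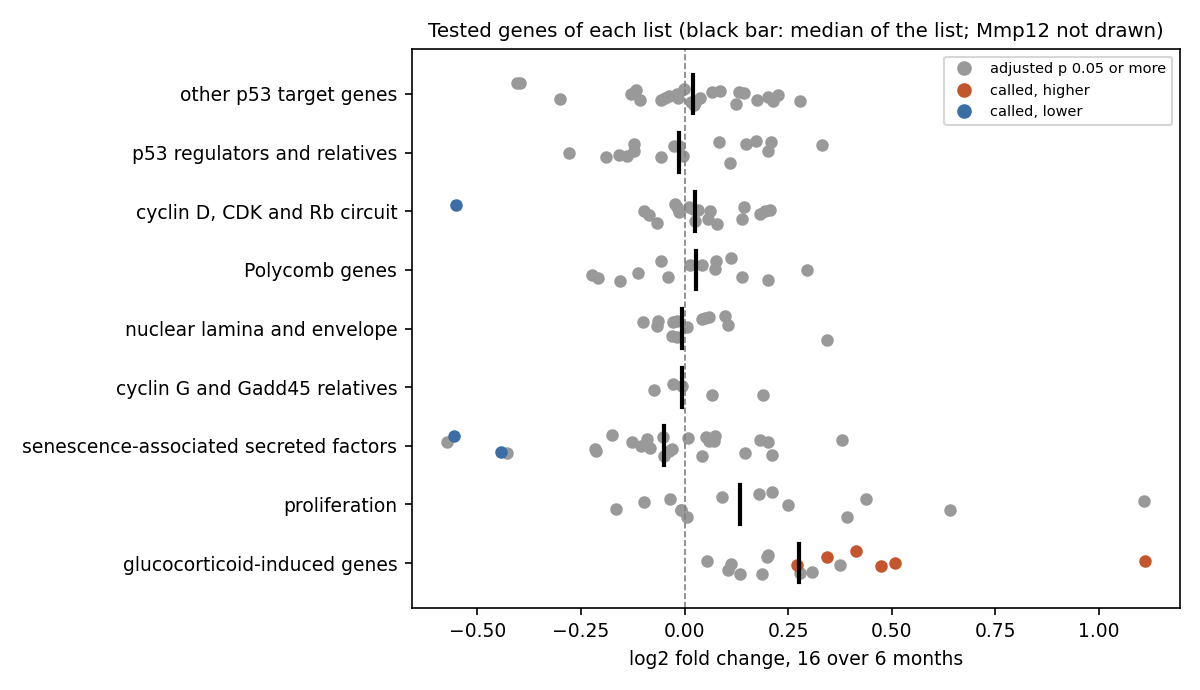
Log2 fold change of 16 over 6 months (horizontal axis) of the tested genes of 8 pathway lists and of the glucocorticoid-induced genes (Cdkn1a included), with the median of each list as a black bar and without Mmp12; orange and blue points passed an adjusted P of 0.05 (edgeR). The medians of the pathway lists lie between −0.051 and 0.13 and that of the glucocorticoid-induced genes at 0.28.

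Cdkn1a is also known as a target of the glucocorticoid receptor, and 15 other genes that glucocorticoids induce were set beside it. All 15 had a positive log2 fold change (0.054 to 1.11, median 0.27), as had 8619 of all 17120 tested genes. Of the 15, 5 were called higher and 0 lower (0.783% and 0.888% of all tested genes). In 13 the older samples all lay above the younger ones (12.2% of all tested genes). The summed level of the 15 was 789 to 813 CPM at 6 months and 976 to 984 CPM at 16 months. The list was written with the higher Plin4 of these samples already known. Plin4, a lipid droplet protein, rose from 5.63, 5.70 and 5.44 CPM to 13.1, 10.6 and 12.4 CPM (log2 fold change 1.11, adjusted P = 0.000607, edgeR). Fkbp5, a cochaperone of the receptor, rose from 38.2, 38.0 and 37.6 CPM to 52.7, 54.3 and 51.1 CPM (0.47, adjusted P = 0.00240). Tsc22d3, the leucine zipper protein GILZ, had 101 ± 6.75 CPM at 6 months and 144 ± 6.30 CPM at 16 months (0.51, adjusted P = 0.00472). Klf9 and the kinase gene Sgk1 were called as well, with log2 fold changes of 0.34 and 0.27 (adjusted P of 0.00939 and 0.0309). Ddit4, which is a target of both p53 and the glucocorticoid receptor and was named after its values were seen, had 42.4 ± 3.48 and 51.3 ± 3.91 CPM (SD, n = 3 each, adjusted P = 0.102). The full palindromic glucocorticoid response element (AGAACA, 3 bases of any kind, TGTTCT) was searched for on either strand. It was found in 0 of the 11 promoter windows of the 8 members with a window and in 3 of all 32851. Among the glucocorticoid-induced genes, here with Cdkn1a included, 1 of 25 windows held it. Plin4, Fkbp5 and Tsc22d3 were called in all 6 fits with 1 sample left out, whereas Klf9 and Sgk1 lost their calls without any 1 sample of 6 months or without replicate 3 of 16 months (adjusted P of at most 0.103 and 0.194). Glucocorticoids were not measured, and their part in the higher Cdkn1a was not tested.

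**Figure D4:**
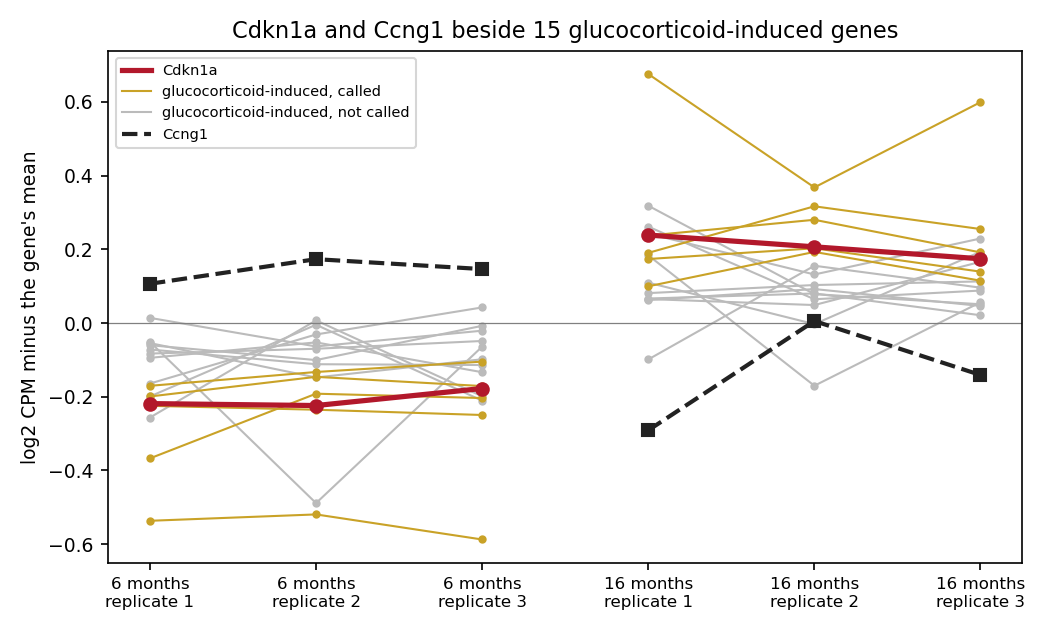
Log2 CPM of each gene minus its mean over the 6 samples (vertical axis) in the 3 samples of 6 months and the 3 of 16 months, for Cdkn1a (red), Ccng1 (black, dashed) and 15 other glucocorticoid-induced genes (yellow where called, grey where not). Cdkn1a lies below its mean in the 3 younger and above it in the 3 older samples. The called glucocorticoid-induced genes do so too, which follows from their being called higher at 16 months. Ccng1 lies above its mean in the 3 younger samples and below it in replicates 1 and 3 of 16 months.

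The 9 genes spanned a wide range of levels. Divided by the length of the merged exons of each gene, Ccng1 was the highest, at 52.6 ± 1.22 CPM per kilobase at 6 months and 43.3 ± 4.45 at 16 months (SD, n = 3 each). It was followed by Mdm2 at 12.6 ± 0.0958 and 12.2 ± 1.09 CPM per kilobase, and by Cdkn1a at 7.63 ± 0.135 and 10.2 ± 0.227 CPM per kilobase. The levels per length of these 3 genes did not overlap in any sample. Gadd45a (4.98 ± 0.309 and 4.81 ± 0.549 CPM per kilobase), Trp53 (3.72 ± 0.299 and 3.84 ± 0.245) and Lmnb1 (2.88 ± 0.0613 and 3.45 ± 0.0862) came next. Lmnb1 and Trp53 overlapped: the highest sample of Lmnb1 had 3.54 CPM per kilobase and the lowest of Trp53 3.41. Cdkn2c had 1.12 ± 0.0850 and 1.17 ± 0.0538 CPM per kilobase. Cdkn2b (0.258 ± 0.0993 and 0.277 ± 0.0258) and Cdkn2a (0.271 ± 0.128 and 0.0699 ± 0.0418) were the lowest and did not differ beyond their spread at 6 months. The order of the 9 genes was the same when the longest transcript was used as the length.

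**Figure D5:**
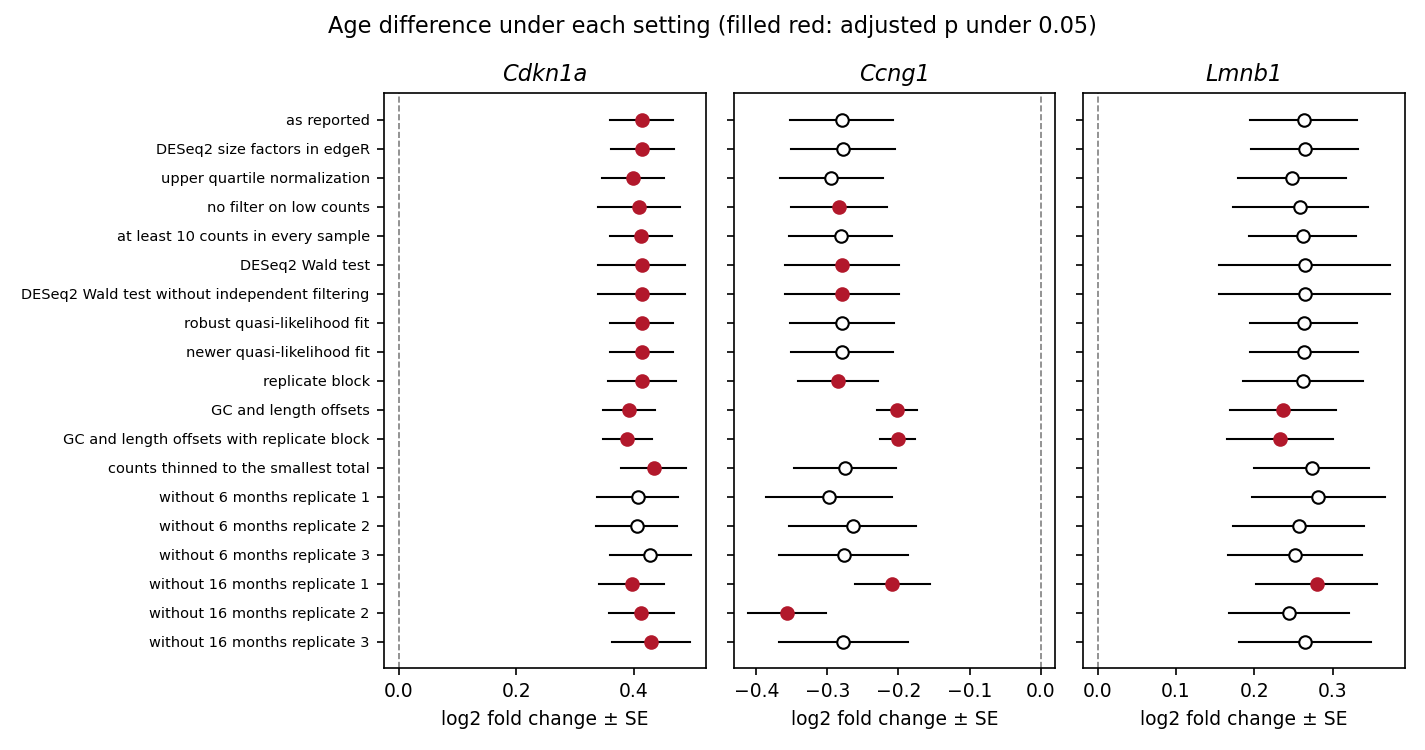
Log2 fold change ± SE of 16 over 6 months (horizontal axes) for Cdkn1a, Ccng1 and Lmnb1 under each of 19 settings, with all samples or with 1 left out; filled red points passed an adjusted P of 0.05. The direction is the same in every setting drawn, and Cdkn1a loses its call in the 3 fits that leave out a sample of 6 months.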

How the data were processed

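Per the paper's methods, the authors trimmed paired-end reads, aligned them to mm10 with STAR and counted them per Ensembl gene with HTSeq. The submitters' processing notes name featureCounts, but the files end in HTSeq's summary of unassigned reads, which was left out here. The deposited values are raw counts per gene without normalization. The annotation release and strand setting are not given in the sources used here.

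Identifiers were matched to GENCODE M21 on GRCm38, the assembly of mm10 (36602 of 38355 genes, all 9 members). The main test was the quasi-likelihood test of edgeR 4.0.16 (R 4.3.3), after TMM scaling and filterByExpr, between 3 samples of 6 months and 3 of 16 months, with Benjamini-Hochberg adjustment over 17120 genes at 0.05 and no covariates. Log2 CPM used a prior count of 2. Library sizes of 29797253 to 46519280 counts set the precision. No source says more than that the 3 samples of an age are different brains, and P-values measure the spread between them. The alternatives were DESeq2 1.42.0, other normalizations and filters, other forms of the quasi-likelihood fit, GC and length offsets, a replicate block, thinning and leaving out samples. Near-identical transcripts were searched with blastn 2.17.0 (at least 97% identity over 100 bases).

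The members and all lists were chosen with earlier results of these data known. Named are the members, called genes of the pathway and response lists, the 2 largest changes of a list without a called gene, the paralogs of members, and the 3 genes nearest in pattern to a called member. Lists are described by counts and medians. Marker lists covered neurons, astrocytes, oligodendrocytes and their precursors, microglia, vessels, choroid plexus, erythroid cells, thalamus, dentate gyrus and striatum.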

Additional observations from a re-analysis of the deposited data

How the results depend on the processing

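The direction of Cdkn1a, Ccng1, Lmnb1 and Cdkn2a was the same under every alternative that gave a value. Cdkn1a was called in all 12 alternatives with all samples (0.39 to 0.43 on the log2 scale) and ranged from 0.40 to 0.43 with 1 sample left out. Ccng1 was called without a filter on low counts and by DESeq2's Wald test with or without independent filtering (−0.28 each), and with GC and length offsets (−0.20). With 1 sample left out it ranged from −0.36 to −0.21 and was called in 2 of 6 fits. Lmnb1 was called with GC and length offsets (0.24). With 1 sample left out it ranged from 0.24 to 0.28 and was called in 1 of 6 fits. Cdkn2a ranged from −2.29 to −1.48 in the 4 such fits in which it passed the filter, through its 6 months samples, where it is higher. It was called without replicate 2 of 16 months (adjusted P = 0.0493, edgeR), a fit that called 2211 genes in all. Cdkn2b was −0.10 in thinned counts. With 1 sample left out, Cdkn2b ranged from −0.19 to 0.22, Trp53 from −0.015 to 0.098, Mdm2 from −0.093 to 0.030 and Gadd45a from −0.10 to 0.046. The members called were 2 without a filter and by DESeq2's Wald test with or without independent filtering, 3 with GC and length offsets, and 0 to 3 with 1 sample left out. Over all genes, 286 calls became 648 without a filter, 470 by DESeq2's Wald test, 2427 with GC and length offsets, and 48 to 2211 with 1 sample left out, the highest without replicate 2 of 16 months. The 4 calls of the pathway lists (0 higher, 4 lower) became 9 without a filter (4 and 5), 6 by DESeq2's Wald test (3 and 3), 30 with the offsets (15 and 15) and 0 to 22 with 1 sample left out (14 and 8 without replicate 2 of 16 months). With 1 sample left out, the median log2 fold change ranged from −0.024 to 0.082 for the members, −0.060 to 0.027 for p53 regulators, −0.014 to 0.035 for Polycomb genes, −0.0068 to 0.0078 for the lamina, −0.027 to 0.096 for the relatives of cyclin G and Gadd45 and −0.14 to 0.012 for secreted factors, so that the sign of these 6 medians depended on 1 sample. In the list of 16 glucocorticoid-induced genes that includes Cdkn1a, the 6 calls became 12 with the offsets and ranged from 3 to 11 with 1 sample left out. Among paralogs, Ccng2 was 0.015 with the offsets and 0.010 in thinned counts, and Cdkn2d −0.0033 with upper quartile normalization and −0.0051 in thinned counts. With 1 sample left out, Ccng2 ranged from −0.082 to 0.056, Cdkn1b from −0.13 to 0.026, Cdkn2d from −0.049 to 0.056, Gadd45b from −0.19 to 0.096, Lmnb2 from −0.11 to 0.033 and Trp73 from −0.040 to 0.33. The cause of these shifts was not tested.

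No source says that the replicate numbers pair the samples, and the main test did not pair them. The deviations of same-numbered samples correlated with r = 0.180, 0.0958 and 0.0351 for numbers 1, 2 and 3. Pairs of different numbers had r between −0.133 and 0.0379. Only replicate 3 of 16 months correlated more with another number, replicate 2 of 6 months (0.0379). Whether samples of the same number share a batch was not tested. With a replicate block, 783 genes, 2 members (Cdkn1a and Ccng1, the latter at −0.28) and 12 pathway genes (6 higher, 6 lower) were called. With the block and the offsets these were 3320, 3 and 37, with 12 glucocorticoid-induced genes (Cdkn1a included), Ccng1 at −0.20, Lmnb1 at 0.23 and Ccng2 at 0.014.

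Counts of 36 and 8 set the precision of Cdkn2a, and counts of that order that of Cdkn2b.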

Other observations

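Marker lists of other cell types gave the following values. Over all tested genes, 0.783% were called higher and 0.888% lower, and the ages lay apart upward in 12.2% and downward in 11.5%. Of 5 erythroid genes, 2 were called higher and the ages lay apart upward in all 5, with a summed level of 27.3 to 30.8 CPM at 6 months and 44.9 to 50.3 CPM at 16 months. Of 5 tested choroid plexus genes 1 was called higher (sum 16.6 to 17.8 and 25.0 to 28.0 CPM), and of 5 genes of oligodendrocyte precursors 1, Gpr17 (sum 167 to 173 and 203 to 219 CPM). Of 8 striatal genes 1 was called higher. Of 8 astrocyte genes 1, Gfap, was called lower, while 5 of the 8 had a positive log2 fold change, 4 of them with the ages apart upward (Aldh1l1, Slc1a3, Slc1a2 and Gja1), and the summed level was 6361 to 6719 CPM at 6 months and 6861 to 7549 CPM at 16 months. DESeq2's Wald test called 3 astrocyte genes. Of 8 oligodendrocyte genes 1, Cldn11, was called higher, and Ermn had a log2 fold change of −0.43 (adjusted P = 0.0744, edgeR), with overlapping sums. Of 8 microglial genes 1, Aif1, was called lower, and Csf1r had a log2 fold change of 0.25 (adjusted P = 0.0926), also with overlapping sums. None of 11 neuronal, 8 endothelial or 10 mural and fibroblast genes was called by edgeR or by DESeq2's Wald test. An unadjusted P under 0.05 was reached by 4, 2 and 2 of them (2987 of all 17120 tested genes). The summed level of the mural and fibroblast genes was 187 to 193 CPM at 6 months and 171 to 175 CPM at 16 months. The single markers were named after their values were seen.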
